A study of Homo sapiens with 6 samples.

Results

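Retinoid storage and retinoic acid signalling was represented by 10 genes. LRAT, RBP4 and STRA6 serve the transport and storage of retinol, ALDH1A1 the making of retinoic acid, CRABP2 and CYP26B1 its binding and breakdown, and RARA, RARB, RARG and RXRA its reception. Every probe set that the platform's annotation assigns to exactly 1 of these genes was taken, which gave 36 of the 49293 probe sets that are not array controls. The cells were LX-2, a single immortalised line of human hepatic stellate cells. All 6 samples were deprived of serum for 12 h. Recombinant human BMP9 was then given at 50 ng/ml to 3 samples and at 0 ng/ml to the 3 controls, and RNA was taken after 24 h and read on 1 Affymetrix 3′ expression array per sample. The labels name neither retinol nor retinoic acid as a treatment in either group. They call the samples biological replicates without saying more of separate cultures, so p-values here reflect only how these samples varied, which may be technical.

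Hepatic stellate cells hold most of the body's vitamin A as retinyl esters in lipid droplets, and lose these stores when they turn into matrix-producing myofibroblasts. Retinol travels in blood bound to RBP4, enters some cells through STRA6 and is esterified by LRAT. Released retinol is oxidised first to retinal and then, by aldehyde dehydrogenases such as ALDH1A1, to retinoic acid. CRABP2 carries retinoic acid to nuclear receptors, which are dimers of a RAR with an RXR, and CYP26 enzymes break it down. BMP9, encoded by GDF2, belongs to the TGF-beta superfamily and acts through SMAD1, SMAD5 and SMAD9.

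RAR-RXR dimers bind tandem repeats of a short half-site. The half-site AGGTCA, its variant AGTTCA, its variant GGGTCA and its variant GGTTCA were searched on both strands, in any pair with a spacer of 5, 2 or 1 bases, in the RefSeq promoter windows (250 bases before to 50 after a start, GRCh38.p14). The members had 22 windows, at least 1 for each gene. A pair with a spacer of 5 bases was found in 1 of them, a RARB window, against 0.0883% of 35116 windows over all genes, and pairs with the shorter spacers were found in 0 of the 22. The palindrome GGCGCC, to which SMAD1 and SMAD5 can bind, was found in 5 of the 22 windows, in LRAT, RBP4, RARB and RXRA, against 19.2% of all windows. A match is a description of the letters and not a site in use. The RARB window is shown because it holds this pair, in capitals, 53 to 37 bases before the start, and that of CRABP2 because CRABP2 had the smallest p among the member genes; the CRABP2 window held none of the motifs searched.
RARB, chr3:25428013-25428312, plus strand: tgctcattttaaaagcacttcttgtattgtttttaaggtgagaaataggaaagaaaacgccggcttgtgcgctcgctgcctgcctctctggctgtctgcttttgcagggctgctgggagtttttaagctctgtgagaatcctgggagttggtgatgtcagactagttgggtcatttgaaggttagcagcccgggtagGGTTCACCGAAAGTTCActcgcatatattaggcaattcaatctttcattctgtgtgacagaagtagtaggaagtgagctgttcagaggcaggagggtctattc
CRABP2, chr1:156705735-156706034, minus strand: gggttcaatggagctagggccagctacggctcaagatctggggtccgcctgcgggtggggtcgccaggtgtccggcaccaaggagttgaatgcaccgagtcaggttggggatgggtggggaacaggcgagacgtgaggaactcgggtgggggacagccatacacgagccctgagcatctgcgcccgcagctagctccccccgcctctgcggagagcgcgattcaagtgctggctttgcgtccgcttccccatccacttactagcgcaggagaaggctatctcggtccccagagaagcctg

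The deposited values are on a log2 scale and carry no detection calls. The array's background probe sets, made of probes that match no human sequence and named for their number of G or C bases, showed how much a value depends on base composition. Their mean over the 6 arrays was 1.67 at 3 such bases, 2.22 at 13, 4.08 at 17, 6.16 at 21 and 10.0 at 25. The composition of the members' own probes was not analysed here. All 36 member probe sets lay within that span, so none is known to lie above background, and levels are not compared between probe sets. This holds for most of the array: 0.363% of all probe sets had a mean above the highest background probe set. The average of the background probe sets was 3.71 to 3.77 on control arrays and 3.71 to 3.78 on BMP9 arrays.

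**Figure D1:**
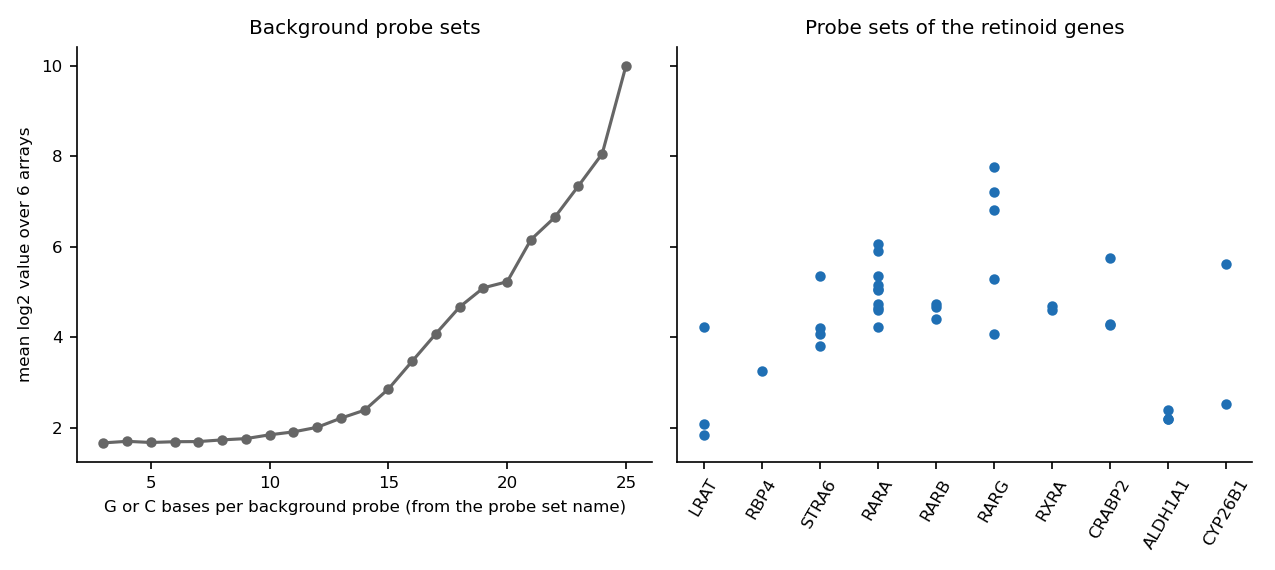
The left panel plots the mean log2 value over 6 arrays of 23 background probe sets against the number of G or C bases in their probes, and the right panel the mean of each of the 36 member probe sets. Background ran from 1.67 to 10.0 over the range of base composition, and every member probe set lay below the highest background value. Of all probe sets 0.363% lay above that value.

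Of 5 genes induced by BMP signalling that served as a check of the agent, 3 rose at the gene level. SMAD6 rose by 3.01 on the log2 scale (SE 0.097, limma adjusted p = 3.97e-07) and ID3 by 1.63 (limma adjusted p = 8.65e-05). ID2 rose by 1.21 (SE 0.23, limma adjusted p = 0.0492), a call lost without control replicate 2 and without any one of the 3 BMP9 replicates (adjusted p 0.0812 to 0.182). SMAD7 (0.21, limma adjusted p = 0.390) and ID1 (0.14, limma adjusted p = 0.582) did not pass, although another ID1 probe set, 11753661_a_at, rose by 3.21. Another SMAD7 probe set, 11725513_a_at, differed by 0.72 with groups apart (limma adjusted p = 0.0619 over probe sets). In the 3 genes that rose, the least difference of a probe set was 0.24 in SMAD6, 0.41 in ID3 and 0.28 in ID2. The stellate and mesenchymal markers averaged 6.13 to 6.21 on control and 6.06 to 6.11 on BMP9 arrays over 15 genes, of which COL3A1 alone passed the test, and those of 4 other liver cell types had 0 of 23 past it. Their average levels overlapped between the groups: 4.05 to 4.13 and 4.07 to 4.14 for hepatocyte markers, 4.45 to 4.59 and 4.47 to 4.57 for endothelial, 3.53 to 3.58 and 3.49 to 3.67 for macrophage and leukocyte, and 3.56 to 3.69 and 3.62 to 3.73 for cholangiocyte markers, control first. The control level of VIM, a mesenchymal filament gene, was 11.62 ± 0.099 (SD, n = 3), above every background probe set. ALB stood at 4.36 ± 0.083 and ACTA2 at 3.90 ± 0.082, within the background's span. Apart from VIM, every stellate and mesenchymal marker had a control mean within that span, from 1.86 in LUM to 9.73 in COL1A1. In bulk RNA, fewer cells of a type and less RNA per cell cannot be told apart. The array's spiked control RNAs were lower on BMP9 arrays, by 0.21 for the hybridisation and 0.47 for the poly-A controls. On the deposited scale 66 probe sets were called higher and 136 lower. With arrays scaled to the hybridisation controls the median difference over all probe sets was 0.22, with 10445 called higher and 143 lower. Scaled to the poly-A controls it was 0.48, with 43885 called higher and 41 lower. The part of the control RNAs in the results was not tested further. Directions here are on the deposited scale: 22 member differences were positive and 14 negative there, 33 and 3 with hybridisation scaling, and 36 and 0 with poly-A scaling. Over all probe sets 52.6% of differences were positive on the deposited scale.

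By limma, 0 of the 36 probe sets of the retinoid genes changed past an adjusted p of 0.05, where 0.41% of all probe sets did (0.134% higher, 0.276% lower). The nearest was CRABP2, the carrier of retinoic acid to its receptors, 1.34-fold lower with BMP9 in 2 of its 3 probe sets with no overlap between the groups. Smaller differences with separate groups were seen in single probe sets of RARB, CYP26B1, ALDH1A1, STRA6 and LRAT and in 4 of the 10 of RARA. RARG, RXRA and RBP4 had overlapping groups in every probe set. Without adjustment 8 of 36 had a limma p under 0.05, of which 5 were higher and 3 lower with BMP9, where 11.4% of all probe sets did so (5.71% higher, 5.65% lower). The groups did not overlap in 11 of 36, 8 higher (9.09% of all probe sets) and 3 lower (8.17% of all), where 17.3% of all probe sets had groups apart. Members of a gene share their target, so these are not independent counts. The median difference was 0.022 over the 36 and 0.0078 over all probe sets, and the median absolute difference 0.12 and 0.084.

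**Figure D2:**
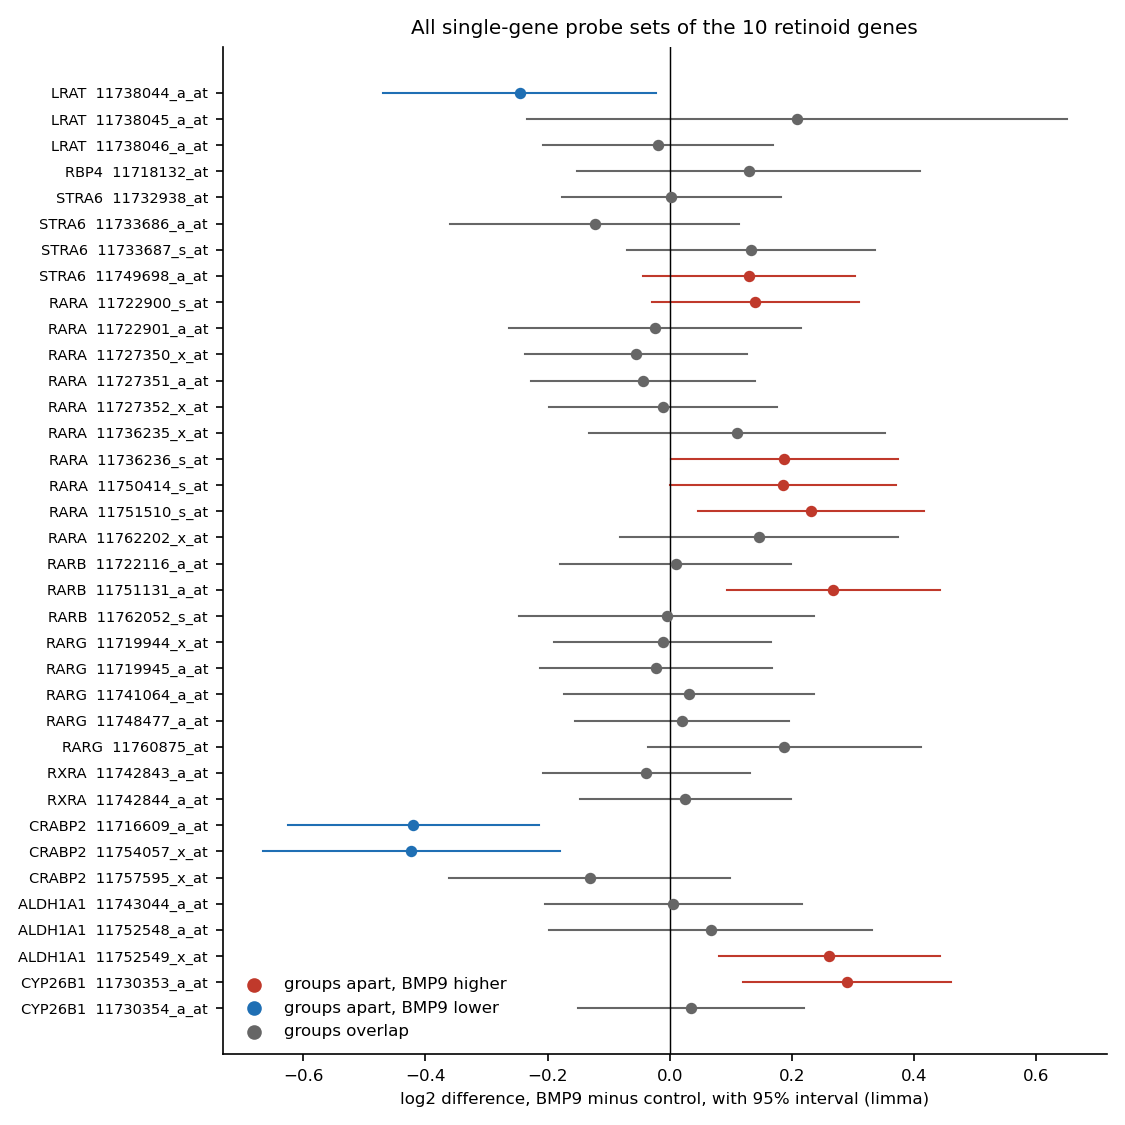
Log2 difference (BMP9 minus control) of each of the 36 probe sets with its 95% interval from limma, coloured by whether the 3 BMP9 arrays lay apart from the 3 control arrays. CRABP2 had the largest differences, -0.42 in 2 probe sets, and most intervals included 0; with poly-A scaling, which adds 0.47 to each, all 36 were positive.

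With 1 probe set per gene, that of the highest mean, 0 of the 10 genes passed an adjusted p of 0.05, where 0.684% of 18132 genes did (42 higher, 82 lower). CRABP2 and ALDH1A1 had an unadjusted limma p under 0.05, as 12.9% of all genes had. These 2 were also the genes whose groups did not overlap, as in 18.8% of all genes. The median difference over the 10 was 0.030, against 0.014 over all genes.

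**Figure D3:**
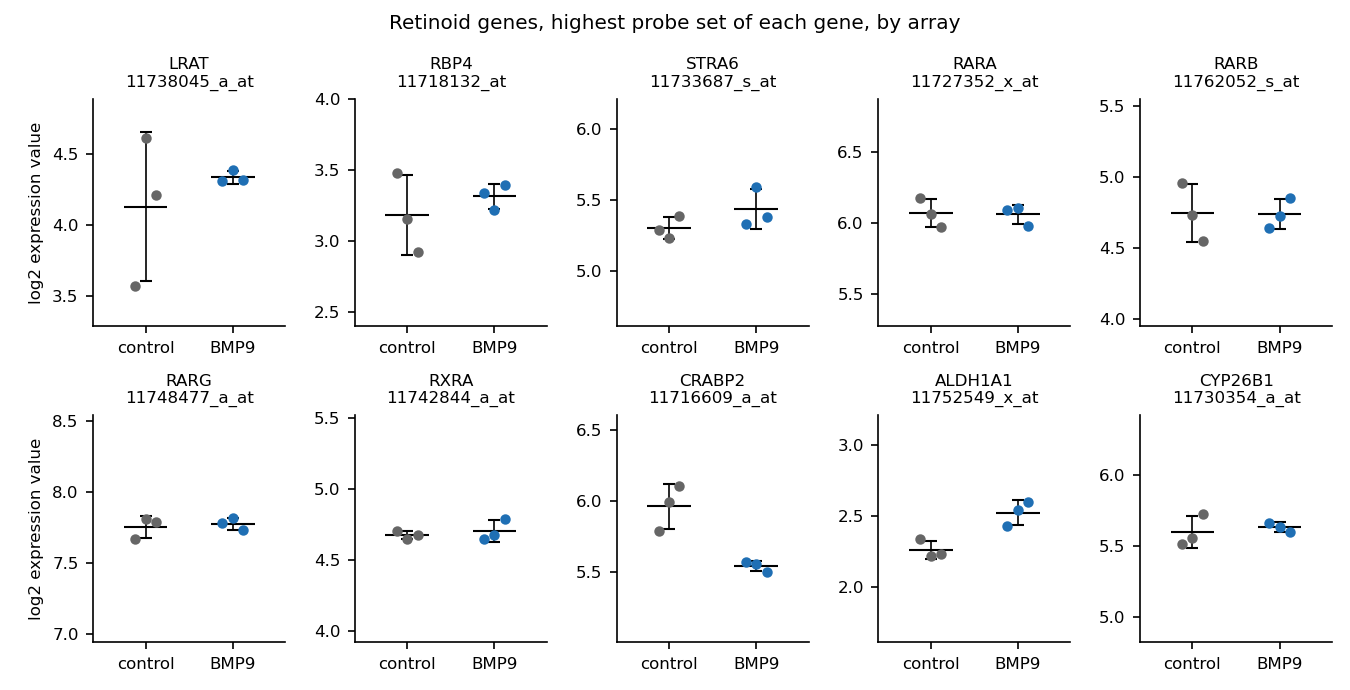
Log2 value on each array for the probe set of the highest mean in each of the 10 genes, with group means and SD (bars, n = 3 arrays per group); each panel spans the same number of log2 units. The groups lay apart in CRABP2 (lower with BMP9, except that poly-A scaling turned its difference to 0.055) and in ALDH1A1 (higher), and overlapped in the other 8.

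Among the genes of retinol transport and storage, RBP4 encodes the plasma carrier of retinol (chromosome 10, 93591694 to 93601744, GRCh38.p14). Its only probe set read 3.48, 3.15 and 2.92 on control arrays and 3.34, 3.22 and 3.39 on BMP9 arrays. The BMP9 values lay inside the control range, and the difference of 0.13 (SE 0.13) had a 95% interval of -0.15 to 0.41. STRA6, the membrane receptor for RBP4 (chromosome 15, 74179466 to 74212259), had 4 probe sets that differed by -0.12 to 0.13. In one of them the groups lay apart: 11749698_a_at read 3.78, 3.73 and 3.72 in control and 3.91, 3.78 and 3.92 with BMP9, a difference of 0.13 (SE 0.078, limma adjusted p = 0.570). The gap between the groups there was narrow, and the other 3 STRA6 probe sets overlapped.

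LRAT, the enzyme that makes the stored retinyl esters and a marker of quiescent stellate cells (chromosome 4, 154740838 to 154753120), had 3 probe sets that disagreed. The highest, 11738045_a_at, read 3.57, 4.61 and 4.21 in control and 4.31, 4.39 and 4.31 with BMP9. Control replicate 1 lay lowest and control replicate 2 highest, so the control arrays spanned the BMP9 ones and the difference of 0.21 (SE 0.20) had an interval of -0.23 to 0.65. Without control replicate 2 the difference was 0.45, and without control replicate 1 it was -0.073. A second probe set, 11738044_a_at, read 2.43, 2.13 and 2.08 in control and 2.02, 1.89 and 1.99 with BMP9. Here all BMP9 values were below all control values, with a difference of -0.25 (SE 0.10, limma adjusted p = 0.390) that became 0.23 with poly-A scaling. The third differed by -0.020.

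ALDH1A1 oxidises retinal to retinoic acid (chromosome 9, 72900671 to 72953053). In 11752549_x_at it read 2.34, 2.22 and 2.24 in control and 2.43, 2.54 and 2.60 with BMP9. Every BMP9 array was above every control array, by 0.26 on average (SE 0.082, 95% interval 0.080 to 0.44, limma adjusted p = 0.265), or 1.20-fold. The gene's other probe sets differed by 0.0058 and 0.067 with overlapping groups. The 3 ALDH1A1 probe sets had control means of 2.18 to 2.26.

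CRABP2, which binds retinoic acid in the cytosol and passes it to the receptors, lies at chromosome 1, 156699606 to 156705784. Probe set 11716609_a_at read 5.79, 5.99 and 6.10 in control and 5.57, 5.55 and 5.50 with BMP9. All 3 BMP9 arrays lay below the lowest control array and close together (means 5.96 ± 0.16 and 5.54 ± 0.036, SD, n = 3). The difference was -0.42 (SE 0.093, 95% interval -0.63 to -0.21, limma adjusted p = 0.110 over all probe sets and 0.0805 over genes). A second probe set, 11754057_x_at, read 4.48, 4.71 and 4.26 in control and 3.99, 4.06 and 4.13 with BMP9. It was lower by the same 1.34-fold, with a difference of -0.42 (SE 0.11, limma adjusted p = 0.175) and no overlap. The third, 11757595_x_at, read 4.51, 4.16 and 4.41 in control and 4.35, 4.15 and 4.19 with BMP9, a difference of -0.13 (SE 0.10) with overlapping groups. CRABP2 passed over genes under 3 of 15 alternatives: a minimum log2 value of 5 (adjusted p = 0.0176), an intensity trend with a robust prior (0.0277) and the mean over its probe sets (-0.32, 0.0324). Over all genes tested 4.04%, 1.57% and 0.48% passed under these 3, against 0.684%. The 15 adjusted p ran from 0.0176 to 0.729, and poly-A scaling turned the difference to 0.055, still below the shift of 0.49 over all genes.

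CYP26B1 breaks down retinoic acid (chromosome 2, 72129238 to 72147862) and was read by 2 probe sets that did not move alike. In 11730353_a_at it read 2.34, 2.45 and 2.39 in control and 2.63, 2.72 and 2.70 with BMP9. The groups lay apart by more than their spread, with a difference of 0.29 (SE 0.077, 95% interval 0.12 to 0.46, limma adjusted p = 0.184), or 1.22-fold. In 11730354_a_at it read 5.51, 5.55 and 5.73 in control and 5.66, 5.64 and 5.60 with BMP9. These values overlapped, and the difference of 0.035 (SE 0.084) had an interval of -0.15 to 0.22.

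The retinoic acid receptors are transcription factors that wait on DNA with corepressors and turn to activation when retinoic acid binds. RARA (chromosome 17, 40309180 to 40357643) had 10 probe sets. In 4 of them all BMP9 values were above all control values, by 0.14, 0.19, 0.18 and 0.23. These were the 4 whose names end in _s_at, a suffix for probes that can be shared between transcripts, also of different genes. The annotation assigns these 4 to RARA alone. The largest, 11751510_s_at, read 4.87, 4.95 and 4.99 in control and 5.26, 5.06 and 5.18 with BMP9 (SE 0.083, limma adjusted p = 0.336), or 1.17-fold higher. The other 6 overlapped and differed by -0.056 to 0.15. Among them was 11727352_x_at, the highest on the arrays, which read 6.17, 6.06 and 5.97 in control and 6.09, 6.10 and 5.98 with BMP9, with an interval of -0.20 to 0.18.

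RARB, itself induced by retinoic acid through a repeat of this kind in its promoter, lies at chromosome 3, 24829321 to 25597932. Probe set 11751131_a_at read 4.58, 4.54 and 4.51 in control and 4.89, 4.73 and 4.81 with BMP9. Every BMP9 array was above every control array, with a difference of 0.27 (SE 0.079, 95% interval 0.093 to 0.44, limma adjusted p = 0.234), or 1.20-fold. The other probe sets gave no such difference. 11762052_s_at read 4.95, 4.73 and 4.55 in control and 4.64, 4.72 and 4.85 with BMP9 (difference -0.0052, SE 0.11), and 11722116_a_at differed by 0.0096 (SE 0.086). Which start site each probe set reads was not analysed here.

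RARG (chromosome 12, 53210569 to 53232209) had 5 probe sets, and in all of them the groups overlapped. The highest, 11748477_a_at, read 7.67, 7.81 and 7.79 in control and 7.78, 7.82 and 7.73 with BMP9, a difference of 0.019 (SE 0.079) with an interval of -0.16 to 0.19. Of the others, 3 differed by -0.022 to 0.031, and 11760875_at by 0.19 (SE 0.10, limma adjusted p = 0.522). RXRA, the partner shared by the RARs and by several other nuclear receptors (chromosome 9, 134326455 to 134440585), had overlapping groups in both of its probe sets. 11742844_a_at read 4.70, 4.65 and 4.68 in control and 4.64, 4.67 and 4.79 with BMP9 (difference 0.025, 95% interval -0.15 to 0.20), and 11742843_a_at differed by -0.038 (interval -0.21 to 0.13).

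Around the members, 5 lists named 90 further genes of retinoid handling and response, of which 76 were measured. At the gene level 0 rose and 1 fell, RDH10, where 0.232% of all genes rose and 0.452% fell. Without adjustment 15 were higher and 5 lower at a limma p under 0.05, where 6.89% of all genes were higher and 5.98% lower. The median difference over the 76 genes was 0.033.

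RDH10, the dehydrogenase that turns retinol into retinal as the first step towards retinoic acid, fell by 0.54 on the log2 scale (SE 0.097, limma adjusted p = 0.0393 over genes), or 1.45-fold. Its probe set 11719626_at read 4.59, 4.77 and 4.83 in control and 4.04, 4.33 and 4.20 with BMP9. All BMP9 values were below all control values, as they were in 11719627_at, which read 3.29, 3.38 and 3.11 in control and 2.86, 2.76 and 2.86 with BMP9 (difference -0.43, SE 0.090). The third probe set, 11758544_s_at, overlapped and differed by -0.12 (SE 0.088). Tested among all probe sets none of the 3 passed (limma adjusted p = 0.0514, 0.0929 and 0.638). RDH10 passed over genes under 6 of 15 alternatives, and the 15 limma adjusted p ran from 0.0188 to 0.683. The call was lost whichever array was left out (adjusted p 0.0612 to 0.151, differences -0.61 to -0.46). It was also lost with hybridisation scaling (-0.33, adjusted p = 0.0504), with poly-A scaling (-0.065) and without probe sets ending in _s_at, _x_at or _a_at (adjusted p = 0.0765). The difference kept its direction in each.

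**Figure D4:**
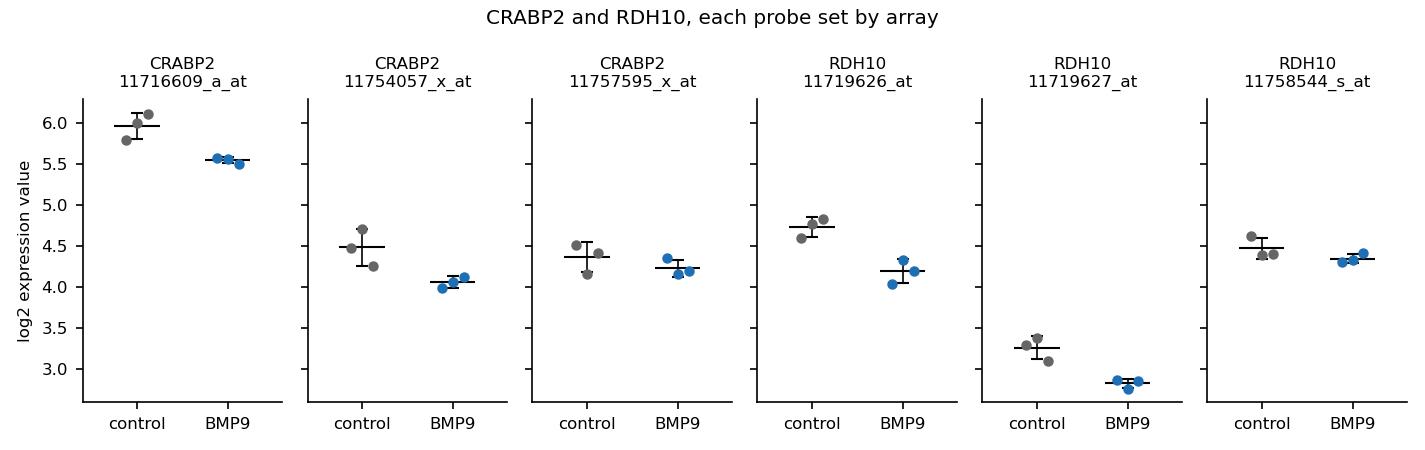
Log2 value on each array for the 3 probe sets of CRABP2 and the 3 of RDH10, with group means and SD (bars, n = 3 arrays per group). In each gene 2 probe sets had all BMP9 arrays below all control arrays and the third overlapped; with poly-A scaling the differences of CRABP2 and of 2 RDH10 probe sets turned positive.

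Retinol and retinal dehydrogenases and reductases had 21 measured genes, 0 risen and 1 fallen, with a median difference of 0.024. After RDH10 the smallest p belonged to RDH11, a retinal reductase (0.30, SE 0.075, limma adjusted p = 0.125), followed by RDH13 (0.14) and AKR1C3 (-0.19), which did not pass. The other RDH11 probe sets differed by -0.036 and 0.036 with overlapping groups. Retinol carriers, uptake and ester storage had 17 measured genes and 0 past the threshold, with a median difference of 0.0035. CD36, a scavenger receptor for lipids, differed by 0.44 (control 2.10 ± 0.15, BMP9 2.55 ± 0.18, SD, n = 3, limma adjusted p = 0.120). The other CD36 probe sets differed by 0.018 and 0.095 with overlapping groups. RBP2, an intestinal retinol-binding protein, differed by -0.24, PNPLA3, a lipase with retinyl ester activity in stellate cells, by 0.19 and RBP5 by 0.17. The other RBP5 probe set, 11727573_a_at, went the opposite way, by -0.36, with all BMP9 arrays below all control arrays. None of these passed.

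Retinoic acid binding and breakdown had 4 measured genes and 0 past the threshold. CYP26C1 differed by 0.30 (SE 0.10, limma adjusted p = 0.255), CYP27C1 by 0.17, FABP5, which carries retinoic acid to another nuclear receptor, by 0.12, and CYP26A1, which retinoic acid itself induces, by -0.072. RXR genes, partner receptors and receptor coregulators had 20 measured and 0 past the threshold, with a median of 0.057. The acetyltransferase coactivator EP300 differed by -0.39 (SE 0.089, limma adjusted p = 0.0977), the corepressor component TBL1XR1 by 0.32, RXRG by 0.29 and the coactivator NCOA1 by -0.27. Other probe sets differed by 0.0088 to 0.12 in TBL1XR1, by 0.026 in RXRG and by -0.49 to -0.086 in NCOA1. Genes known to be induced by retinoic acid had 14 measured, 10 positive and 4 negative, 0 past the threshold and a median of 0.060. Over all genes 54.7% of differences were positive. MEIS2, a homeobox gene, went from 8.48 ± 0.082 to 8.75 ± 0.010 (SD, n = 3, difference 0.27, limma adjusted p = 0.168). PLAAT4 differed by 0.20, RARRES1 by 0.25 and RAI14 by 0.19, none of which passed. Their other probe sets overlapped and differed by 0.00037 and -0.10 in PLAAT4, 0.054 in RARRES1 and -0.068 in RAI14.

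**Figure D5:**
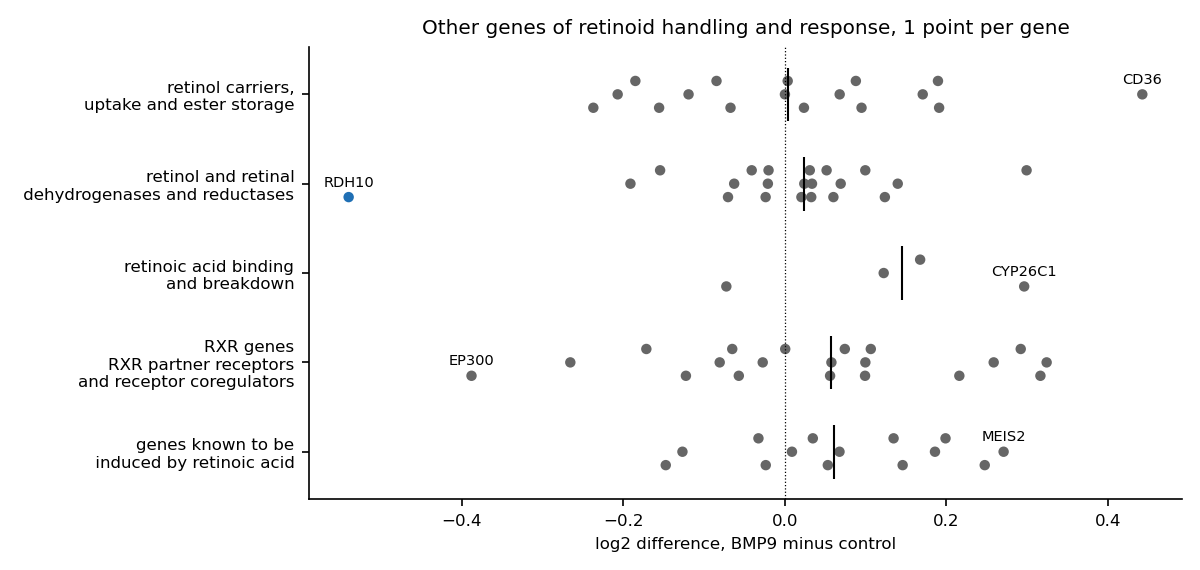
Log2 difference (BMP9 minus control) of each measured gene of 5 lists, 1 point per gene, with the list's median as a vertical bar and the gene of the smallest p named. RDH10, at -0.54, was the gene past the threshold (blue); poly-A scaling, which adds 0.47 to each point, left it at -0.065.

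The genes whose values followed CRABP2 most closely over the 6 arrays were ZBTB49 (Pearson's r = 0.993), MYO19 (0.991) and SUSD6 (0.990), with differences of -0.19, -0.32 and -0.13. They were picked as the closest of 18132 genes, the 6 arrays differ by treatment, and no test is attached.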

How the data were processed

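The 6 arrays were 3 of LX-2 cells with 50 ng/ml BMP9 and 3 with 0 ng/ml, grouped and numbered by the labels. The authors deposited 1 log2 value for each probe set and array, computed with RMA per the submitters' processing notes. Version, settings and log base are not given there; the base was taken from the range of values, 1.38 to 13.6. RMA normalises arrays by quantiles, and this takes out most of any change common to all transcripts.

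Of 49395 probe sets 102 were array controls. The other 49293 were fitted in limma 3.58.1 under R 4.3.3 (lmFit, eBayes, no covariate), with Benjamini-Hochberg adjustment over all of them and a threshold of 0.05. A second fit used, for each of 18132 genes, the single-gene probe set of the highest mean. No filter was applied. Genes were named from the platform's annotation, updated by Entrez identifier (44961 of 44988 single-gene probe sets matched); 1832 probe sets with several symbols and 2473 with none were not assigned to a gene, and 0 of the former named a member. Sequences are RefSeq's (GRCh38.p14). At most 0.00405% of values were identical between 2 arrays. The fits were tested on simulated data. The number of arrays limits the precision; the median SE of a probe set's difference was 0.092.

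The members and lists were chosen with earlier results of these data known. The text names all members, and of each list the genes past the threshold and otherwise the 4 of the smallest p. The alternatives were a replicate block, quantile normalisation, median centring, scaling to control probe sets, a minimum log2 value of 5, a trended robust prior, each array left out, single-gene probe sets alone, and other choices of probe set per gene, of which leaving out only _s_at and _x_at probe sets was chosen after seeing the data. Listed genes without a single-gene probe set were not analysed here. Figures were drawn with matplotlib 3.10.9.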

Additional observations from a re-analysis of the deposited data

How the results depend on the processing

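No member probe set and no member gene passed with a replicate block, quantile normalisation, median centring, any single array left out or, for probe sets, single-gene probe sets alone; for genes, Welch's test called 0 of 18132. A minimum log2 value of 5 (13 member probe sets and 5 genes left), a trended robust prior and, for genes, the mean over probe sets called 1, CRABP2, where overall 4.10% of probe sets and 4.04% of genes passed with the minimum, 0.87% and 1.57% with the robust prior and 0.48% of genes with the mean. Hybridisation scaling called 11 probe sets and 2 genes (21.5% and 27.1% of all), and poly-A scaling 33 and 9 (89.1% and 90.0% of all), all higher, as these add a shift to every gene.

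The deviations of same-numbered arrays from their group means correlated at 0.0038, 0.046 and -0.021, and those of differently numbered arrays at -0.073 to 0.063. These values cannot show whether same-numbered samples were handled together. The replicate block called 0 member probe sets and genes, and over all probe sets 44 higher and 116 lower, against 66 and 136; RDH10 kept its call over genes (adjusted p = 0.0307).

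In the dehydrogenase list the 1 call became 0 whichever array was left out. It also became 0 without probe sets ending in _s_at, _x_at or _a_at, which left 8354 genes and 3 members. The count was 0 with a minimum of 5 as well, but that filter removed RDH10 (means 4.73 in control and 4.19 with BMP9). It therefore could not test this call. The retinoic acid-induced list gave 1, MEIS2, with the minimum of 5 and with the robust prior, where 4.04% and 1.57% of all genes passed. With hybridisation scaling the lists of carriers, dehydrogenases, binding, receptors and induced genes gave 4, 4, 3, 8 and 6 (27.1% of all genes), and with poly-A scaling 15, 19, 4, 17 and 14 (90.0% of all genes), out of 17, 21, 4, 20 and 14 measured.

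Signs changed as follows; the cause was not tested where it is not the added shift. With hybridisation scaling the difference became 0.19 in LRAT, 0.089 in STRA6, 0.19, 0.16, 0.17 and 0.20 in RARA, 0.21 in RARB, 0.20 and 0.19 in RARG, 0.17 in RXRA, 0.080 in CRABP2 (11757595_x_at), 0.088 in RDH10 (11758544_s_at), 0.020 in AKR1C3 and 0.14 in CYP26A1. With poly-A scaling it became 0.23 and 0.46 in LRAT, 0.35 in STRA6, 0.45, 0.42, 0.43 and 0.46 in RARA, 0.47 in RARB, 0.46 and 0.45 in RARG, 0.44 in RXRA, 0.055, 0.052 and 0.34 in CRABP2, 0.046 and 0.35 in the 2 lesser RDH10 probe sets, 0.24 in RBP2, 0.28 in AKR1C3, 0.40 in CYP26A1, 0.21 in NCOA1 and 0.087 in EP300. Quantile normalisation gave -0.0094 in STRA6 and -0.0011 in RARB, and median centring -0.0095 in STRA6, -0.0023 in RARB and -0.0061 in ALDH1A1. The mean over probe sets gave -0.019 in LRAT, 0.086 in RARA, 0.091 in RARB, -0.0066 in RXRA and -0.092 in RBP5, and leaving out _s_at and _x_at probe sets, chosen after seeing the data, 0.27 in RARB. With single arrays left out, the differences that changed sign ran from -0.073 to 0.45 and from -0.076 to 0.040 in LRAT, from -0.0030 to 0.28 in RBP4, from -0.041 to 0.054 in STRA6, from -0.15 to 0.065, -0.086 to 0.020, -0.059 to 0.042 and -0.095 to 0.0035 in RARA, from -0.10 to 0.10 and -0.036 to 0.071 in RARB, from -0.026 to 0.047, -0.037 to 0.089, -0.066 to 0.035 and -0.062 to 0.034 in RARG, from -0.019 to 0.054 in RXRA, from -0.044 to 0.21 and -0.083 to 0.059 in ALDH1A1, and from -0.0074 to 0.10 in CYP26B1.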
